A study of Mus musculus with 35 samples.

Results

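The 10 genes described here (Grm6, Trpm1, Vsx1, Prkca, Pcp2, Bhlhe23, Cabp5, Grik1, Gng13 and Lhx4) are genes of retinal bipolar cells. They form a list of genes given by name. All 10 were found among the 14545 mouse coding genes whose starts could be placed on the genome build of the files (mm9).

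The study asked how the chromatin remodeler Brg1 acts during retinal development, by ChIP-Seq on whole mouse retinae. Histone marks were measured in wild-type retinae at postnatal day (P) 0, P14 and P21, with 2 libraries per mark and stage. At P12, Brg1-deficient retinae (genotype label BRG1 -/-) were set beside wild-type retinae, with 2 against 1 libraries for H3K27Ac, 1 against 1 for H3K4me3 and 1 against 2 for H3K27me3. Brg1 itself was measured with an antibody to a FLAG tag, in 1 library of retinae from P0 knock-in mice (genotype label BRG-FLAG). The Brg1-deficient mice carried Brg1Lox/Lox alleles and a Cre transgene that acts in retinal progenitor cells in a mosaic pattern, so wild-type cells remain in these retinae, and the study preferentially used animals with microphthalmia. The Brg1-FLAG retinae were flash frozen and came from another laboratory. How many animals went into a library is not given in the sources used here. The study describes its ChIP-Seq replicates as biological duplicates without saying how they were taken, so p-values measure the spread between these libraries only.

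Bipolar cells are the interneurons that carry the light signal from photoreceptors to the inner retina, and they are among the last cell types to be born. ON bipolar cells sense photoreceptor glutamate through a metabotropic receptor, which signals through a G protein to close a cation channel, whereas OFF bipolar cells use ionotropic glutamate receptors. H3K4me3 is a mark of active promoters, H3K27Ac of active promoters and enhancers, and H3K27me3 of Polycomb repression. A promoter with both H3K4me3 and H3K27me3 is called bivalent. In whole retina, fewer cells with a mark and less of the mark per cell cannot be told apart, and neither can a bivalent promoter in every cell and a mixture of cells with either mark.

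Values are the fold enrichments that the authors deposited for each peak. The height at a promoter is the highest fold enrichment of a peak within 2 kb of the start, and 0 where no peak is listed. The libraries were not equally rich. H3K27Ac lists of replicate 1 at P0, P14 and P21 held 17433 to 18718 peaks, and those of replicate 2 held 29304 to 50005. For H3K4me3, the median promoter height was 62.0 in P21 replicate 1 and 23.8 in P21 replicate 2. Heights were therefore scaled between libraries before any test. Smarca4, which encodes Brg1, had H3K4me3 at its promoter in the Brg1-deficient P12 library (31.4), but a promoter peak does not check the deletion.

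The promoters of the 10 genes differ in their sequence, and 4 are shown as examples. They are Prkca, with the tallest H3K4me3 of the 10 genes in every library, Lhx4 lower and Trpm1 higher at P21, and Cabp5 with few peaks. Each runs from 250 bases before to 50 bases after the RefSeq start in GRCm38.p6, on the strand of the gene. Capitals mark CG dinucleotides and the core TAATCC on either strand, a core bound by the photoreceptor and bipolar factors OTX2 and CRX.
Prkca, chr11:108343839-108344138, minus strand: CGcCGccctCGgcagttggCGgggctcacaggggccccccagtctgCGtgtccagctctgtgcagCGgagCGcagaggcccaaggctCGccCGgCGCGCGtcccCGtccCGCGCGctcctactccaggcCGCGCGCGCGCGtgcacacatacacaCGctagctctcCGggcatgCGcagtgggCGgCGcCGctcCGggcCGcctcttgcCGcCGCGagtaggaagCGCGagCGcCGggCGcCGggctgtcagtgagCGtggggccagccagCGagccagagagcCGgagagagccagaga
Lhx4, chr1:155741978-155742277, minus strand: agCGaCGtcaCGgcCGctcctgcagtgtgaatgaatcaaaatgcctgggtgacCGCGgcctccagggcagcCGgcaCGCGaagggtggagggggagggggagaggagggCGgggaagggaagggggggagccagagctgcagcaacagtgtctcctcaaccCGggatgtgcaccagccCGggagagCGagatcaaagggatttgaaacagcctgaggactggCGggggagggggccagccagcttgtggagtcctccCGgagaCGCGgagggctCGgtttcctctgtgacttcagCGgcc
Trpm1, chr7:64153585-64153884, plus strand: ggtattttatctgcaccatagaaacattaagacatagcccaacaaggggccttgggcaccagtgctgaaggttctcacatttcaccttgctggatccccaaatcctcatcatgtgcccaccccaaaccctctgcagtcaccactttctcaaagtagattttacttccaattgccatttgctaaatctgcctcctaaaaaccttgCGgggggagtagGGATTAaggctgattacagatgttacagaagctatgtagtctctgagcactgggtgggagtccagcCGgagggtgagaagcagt
Cabp5, chr7:13397905-13398204, plus strand: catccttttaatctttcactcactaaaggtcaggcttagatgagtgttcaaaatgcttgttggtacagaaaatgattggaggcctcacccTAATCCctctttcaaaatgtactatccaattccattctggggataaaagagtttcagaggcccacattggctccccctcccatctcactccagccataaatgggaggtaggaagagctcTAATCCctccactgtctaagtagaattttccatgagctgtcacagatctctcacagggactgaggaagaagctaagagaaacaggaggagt

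The Prkca promoter held 42 CG dinucleotides (75.3% G and C), Lhx4 held 19 (66.3%), Trpm1 held 2 (48.3%) and Cabp5 held none (0, at 44.7% G and C). The median over 32851 RefSeq promoters of the same length was 7 CG dinucleotides. Bhlhe23 also held 19, while Vsx1 held 5, Grm6 held 4 and the first listed start of Pcp2 held 1. Gng13 held 6 at its first listed start and 34 at its second. TAATCC, searched as TAATCC and GGATTA, was present in 2 of the 9 genes with a promoter in the table, once at Trpm1 and at 2 places at Cabp5. By promoter this was 2 of the 14 listed for these genes, against 7.06% of all promoters. TAATTA, a core shared by many homeodomain factors, was present in 1 of the 9 genes, at a later start of Pcp2. By promoter this was 1 of 14, against 5.29% of all promoters. Grik1 has no entry in the table.

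At P0, 7 of the 10 genes had an H3K4me3 peak at the start in both replicates, against 68.6% of all 14545 genes. Trpm1, Pcp2 and Cabp5, whose first listed promoters held the fewest CG dinucleotides of the 9, had none. At P14 the count was 8 of 10, with Trpm1 added, and at P21 it was 9 of 10, with Pcp2 added. The shares over all genes were 67.0% at P14 and 65.8% at P21. Grik1 is among them by construction, as its start was taken from the gene end with H3K4me3. These counts rest on weak peaks, since among the strongest 50% of peaks of each library they were 2, 1 and 1.

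H3K27Ac at the start was scarcer. Both replicates listed it at P0 for Prkca and Lhx4 only (2 of 10, against 54.6% of all genes), and at P14 and at P21 for Prkca only (1 of 10, against 41.8% and 35.4%). Replicate 1 decides this count. In replicate 2 of P14, the longest list of the mark, 9 of the 10 genes had a peak, all but Cabp5, against 64.7% of all genes. Their heights were 3.19 at Pcp2 to 15.5 at Prkca. In replicate 2 of P21, a list of 45833 peaks, 3 had a peak (Grm6, Prkca and Gng13), against 60.3% of all genes.

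**Figure D1:**
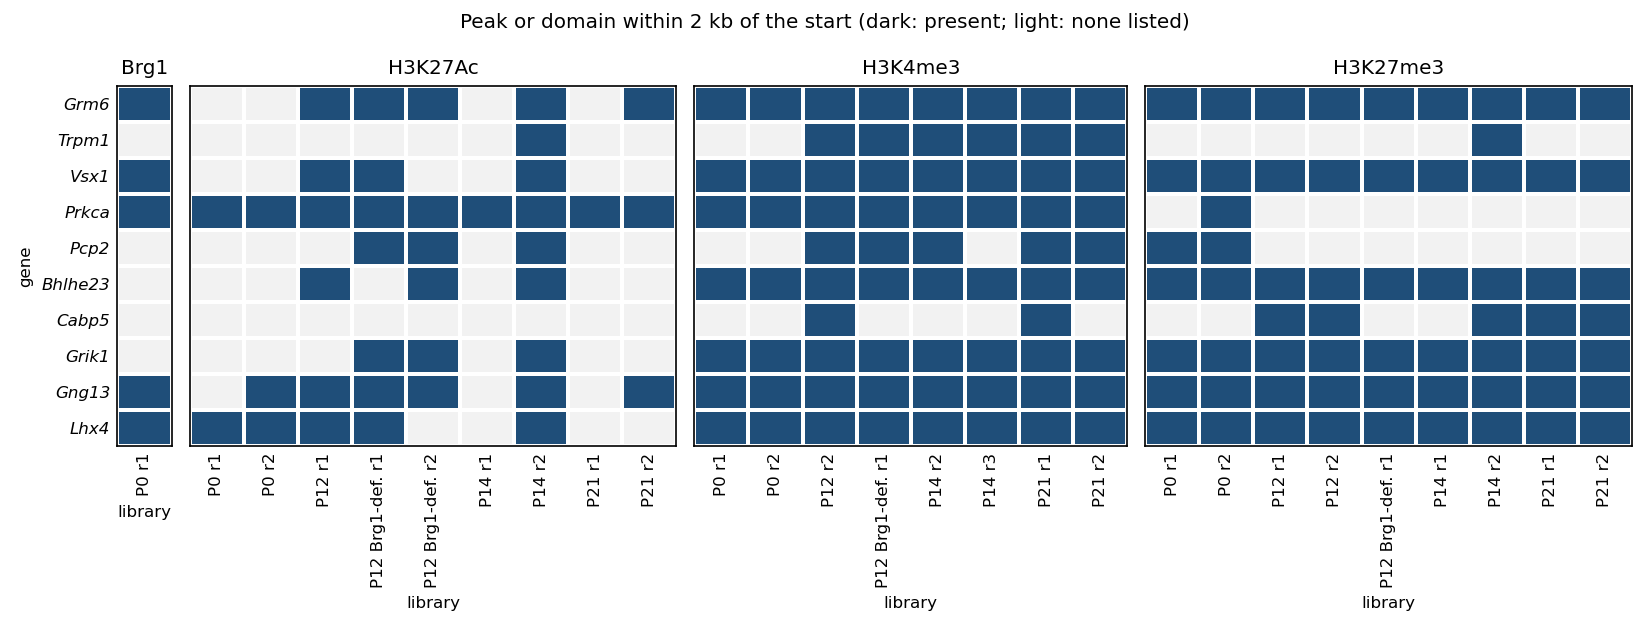
Presence of a Brg1 peak, an H3K27Ac or H3K4me3 peak or an H3K27me3 domain within 2 kb of the start, for each gene (rows) and library (columns, r for replicate, Brg1-def. for Brg1-deficient). Grm6, Vsx1, Bhlhe23, Grik1, Gng13 and Lhx4 are dark in all H3K4me3 and H3K27me3 columns, and Prkca in all H3K27Ac and H3K4me3 columns.

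H3K27me3 was deposited as broad domains, and 6 of the 10 genes had such a domain within 2 kb of the start in all 9 libraries. It covered the start in all 9 at 5 of them and in 8 of 9 at Grik1. They were the receptor genes Grm6 and Grik1, the G protein subunit gene Gng13 and the transcription factor genes Vsx1, Bhlhe23 and Lhx4. The same 6 genes had H3K4me3 in every library, which at Grik1 follows from how its start was chosen. By stage, H3K4me3 and H3K27me3 were both present in both replicates at 6 of the 10 genes at P0, P14 and P21, against 18.6%, 14.9% and 14.3% of all genes. No test was run on this count, as the genes are not replicates.

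The domains differed in length. At Lhx4 the longest domain within 2 kb of the start spanned 27.2 to 55.8 kb (median 42.2 kb, 9 libraries), at Bhlhe23 14.2 to 29.8 kb and at Vsx1 7.20 to 18.6 kb. At Gng13 it spanned 5.80 to 17.6 kb, at Grm6 8.20 to 28 kb and at Grik1 4 to 8 kb. By their medians (42.2, 19 and 16 kb) the 3 transcription factor genes had the longest domains of the 10 genes. A different antibody was used for H3K27me3 at P12 (AB3) than at the other stages (AB1). Ranges, medians and counts over 9 libraries hold both antibodies, and no test compared P12 with the other stages for this mark.

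The other 4 genes varied between libraries. Cabp5, which encodes a calcium-binding protein of bipolar cells, had no domain at P0 and a domain within 2 kb in 3 of the 4 libraries of P14 and P21. Its P12 wild-type libraries both had a domain and the Brg1-deficient library had none within 2 kb. Pcp2, which encodes a modulator of G protein signaling, had a domain within 2 kb of the start at P0 only, in both replicates. The domain covered the Pcp2 start in replicate 1 and lay 1199 bp from it in replicate 2. In both it covered the start of the neighbor Stxbp2. A domain of P12 wild-type replicate 1 lay 2399 bp from the Pcp2 start, outside the window. Prkca had a domain in 1 of 9 libraries (P0 replicate 2, 3.20 kb) and Trpm1 in 1 of 9 (P14 replicate 2, 9.40 kb).

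Brg1 was found at the start of 5 of the 10 genes at P0, against 59.8% of all genes. Among the 2705 genes that had both H3K4me3 and H3K27me3 in both P0 replicates, 77.9% had a Brg1 peak there. Of the 6 bipolar cell genes in that class, Grm6, Vsx1, Gng13 and Lhx4 had one. The fold enrichments were 7.59 at Lhx4, 7.37 at Gng13, 7.08 at Prkca, 5.24 at Grm6 and 4.78 at Vsx1. Bhlhe23 and Grik1, which had both histone marks at P0, had no Brg1 peak at the start, and neither did Trpm1, Pcp2 or Cabp5. Without a replicate these are values of a single library.

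Lhx4, a LIM homeodomain factor of cone bipolar cells, stood out by its number of Brg1 peaks. Its gene body and the 20 kb on each side held 17 peaks, or 18.1 per 100 kb, a density above that of 93.5% of all genes (median 2.69). They reached from chr1:157539485-157539806 to chr1:157604760-157605149 in mm9, and the highest (7.59) lay at chr1:157589553-157590272, with its summit at -628 bp from the placed start. Prkca held 28 peaks over a far longer gene, or 6.22 per 100 kb. No Brg1 peak was listed around Cabp5 or Grik1.

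The stage comparison asked how H3K4me3 at these promoters differed between P0, when late-born retinal cells are still being formed, and the later stages. At P21 against P0 it was lower at Lhx4 and Vsx1 and higher at Trpm1, by a limma fit on log2 scaled heights with Benjamini-Hochberg adjustment over 10108 genes. Of the 10 genes, 9 entered the fit, with Cabp5 left out for having a peak in a single library of these stages. Past the threshold (adjusted p under 0.05, "called" from here on) were 2 lower and 1 higher, while over all genes 6.31% were called, 5.41% as lower and 0.9% as higher. Trpm1 and Pcp2 entered the fit only through P14 and P21 libraries, so they could only be higher at the later stages. The median log2 difference was -0.25 over the 9 genes and -0.08 over all genes tested.

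At Lhx4 the H3K4me3 heights were 34.9 and 42.7 at P0, 13.0 and 23.1 at P14, and 16.6 and 4.98 at P21. All later libraries lay below both P0 libraries. After scaling, the mean was 37.4 ± 4.52 at P0 and 8.76 ± 1.43 at P21 (SD, n = 2 each), or 23.4% of the P0 mean. The fitted log2 difference was -1.47 (SE 0.28, adjusted p = 0.00934, limma). The peak was 3.41 and 3.74 kb wide at P0, was listed in 2 parts at P14 (2.30 kb for the wider part in both libraries), and was 3.57 and 2.56 kb wide at P21. In P0 replicate 1 it lay at chr1:157587326-157590732. The call was lost without P21 replicate 1 (adjusted p = 0.0545) or P21 replicate 2 (adjusted p = 0.0676), and without scaling (adjusted p = 0.306).

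Vsx1, a homeodomain factor of cone bipolar cells, had heights of 15.8 and 23.9 at P0, 8.76 and 8.18 at P14, and 5.51 and 3.38 at P21. The 3 stages did not overlap, in descending order from P0. The scaled mean was 19.1 ± 5.16 at P0 and 4.25 ± 1.43 at P21 (SD, n = 2 each), with a log2 difference of -1.18 (SE 0.27, adjusted p = 0.0213, limma). The call was lost without P0 replicate 2 (adjusted p = 0.167), P21 replicate 1 (0.157) or P21 replicate 2 (0.0684), and without scaling (0.536). In P0 replicate 1 the peak lay at chr2:150513854-150514952 at the 5′ end of the gene.

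Trpm1 encodes the cation channel that ON bipolar cells open in light. It had no H3K4me3 peak in either P0 library, heights of 5.27 and 5.18 at P14, and 11.6 and 4.29 at P21. Both later stages lay above P0, with the P21 libraries apart from each other before scaling. The log2 difference at P21 was 0.94 (SE 0.25, adjusted p = 0.0425, limma), and no fold is given against a group without peaks. The call was lost when any single library of P0 or P21 was left out (adjusted p between 0.152 and 0.204), without scaling (0.760), with the same number of peaks per library (0.0539) and with peaks within 1 kb (0.0619). In P21 replicate 1 the peak lay at chr7:71298845-71301136, beginning 92 bp inside the gene. The P14 peaks of 5.27 and 5.18 began 1357 and 1901 bp inside the gene. P14 replicate 3 also listed a peak of 3.23 that began 16 bp inside it.

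**Figure D2:**
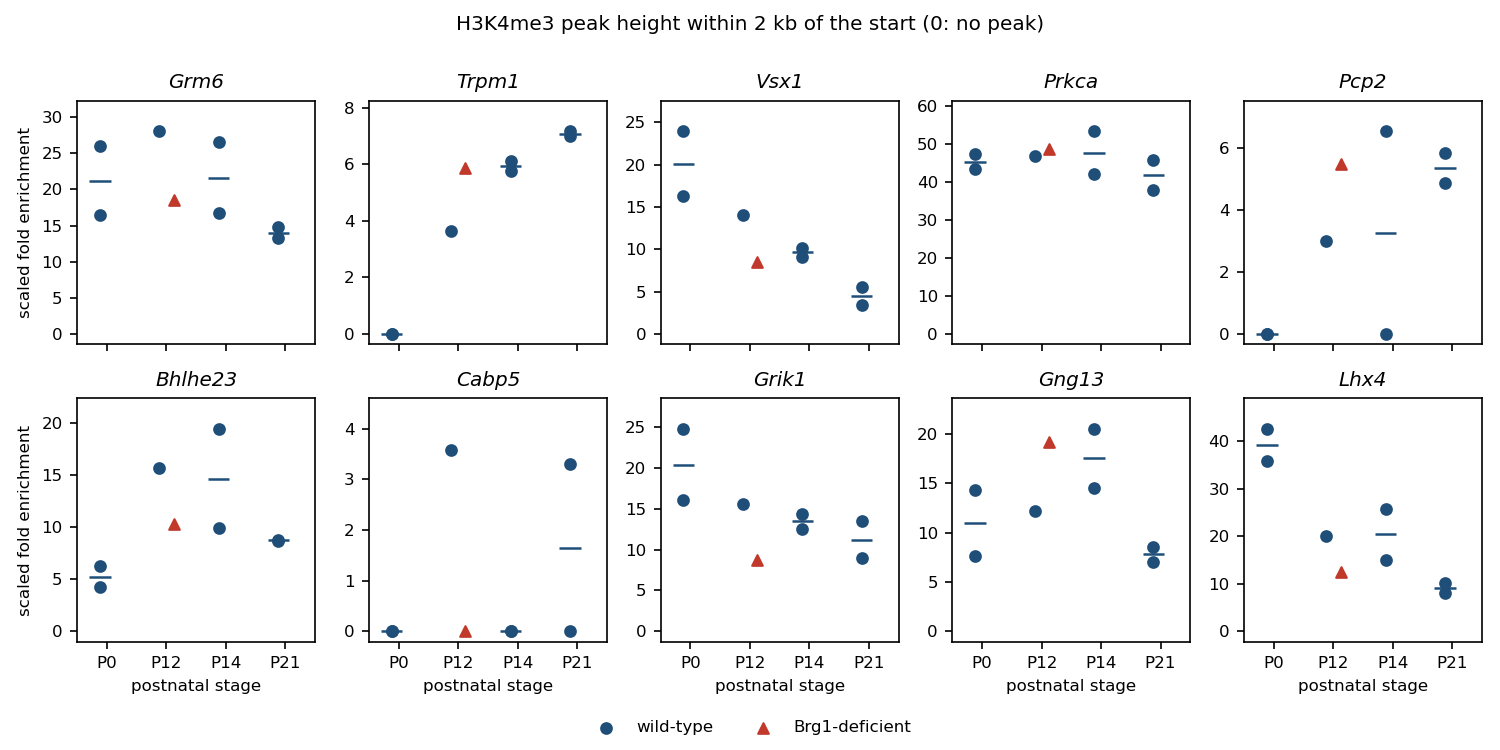
H3K4me3 height within 2 kb of the start by stage for each gene, as fold enrichment scaled over all 8 libraries of the mark. Points are libraries, bars the mean of 2 libraries, circles wild-type and triangles Brg1-deficient; Lhx4 and Vsx1 descend from P0 to P21, and Trpm1 is at 0 in both P0 libraries.

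Of the remaining genes of the ON pathway, Grm6, the metabotropic glutamate receptor of ON bipolar cells, had H3K4me3 heights of 25.3 and 16.5 at P0, 22.9 and 15.0 at P14, and 24.2 and 8.09 at P21. The stages overlapped before scaling, both P21 libraries lay below both P0 libraries after it, and the difference at P21 did not pass the test (log2 difference -0.39, SE 0.28, adjusted p = 0.559, limma). Gng13, the gamma subunit of the ON bipolar G protein, ranged from 5.25 to 18.02 over all 8 libraries, with its P14 heights (17.7 and 13.1) above those of P21 (11.4 and 5.25). No difference at Gng13 passed the test (log2 difference at P21 against P0 -0.25, SE 0.28, adjusted p = 0.759, limma).

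Pcp2 had no peak at P0, 5.64 and none at P14, and 7.92 and 3.58 at P21. Its log2 difference at P21 was 0.76 (SE 0.30, adjusted p = 0.175, limma). Prkca, the protein kinase C that marks rod bipolar cells, had the tallest promoter peak of the 10 genes in every library, between 23.1 and 74.2. Its scaled means were nearly level, 43.1 ± 2.57 at P0 and 39.8 ± 5.40 at P21 (SD, n = 2 each; log2 difference -0.10, SE 0.26, adjusted p = 0.915, limma).

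Bhlhe23, a basic helix-loop-helix factor needed by rod bipolar cells, had heights of 4.11 and 6.30 at P0, 16.8 and 8.91 at P14, and 14.2 and 5.40 at P21. After scaling both later stages lay above P0, but neither difference passed the test (log2 difference 0.76 at P14 and 0.35 at P21, SE 0.28 each, adjusted p = 0.220 and 0.610, limma). Grik1, a kainate receptor subunit of OFF bipolar cells, had 24.0 and 16.0 at P0, and 14.6 and 8.22 at P21 (log2 difference -0.56, SE 0.27, adjusted p = 0.298, limma). Its start was taken from the gene end that had H3K4me3 in 8 libraries, as no promoter entry gave the strand. Counting genes whose scaled P0 and P21 libraries did not overlap, 3 of 9 were higher and 4 of 9 were lower, against 14.8% and 30.9% of all genes tested.

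At P14 against P0 none of the 9 genes was called (0, against 1.77% of all genes, 0.564% as higher and 1.21% as lower), with 4 at an unadjusted p under 0.05 (against 14.6%). At P21 against P14 none was called either (0, against 0.00989%), with 2 at an unadjusted p under 0.05 (against 6.47%). For P14, the lowest adjusted p was 0.125, at Trpm1 (log2 difference 0.82, SE 0.25). A pseudocount of 1 in place of 7.37 raised the calls at P14 from 0 to 1.

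**Figure D3:**
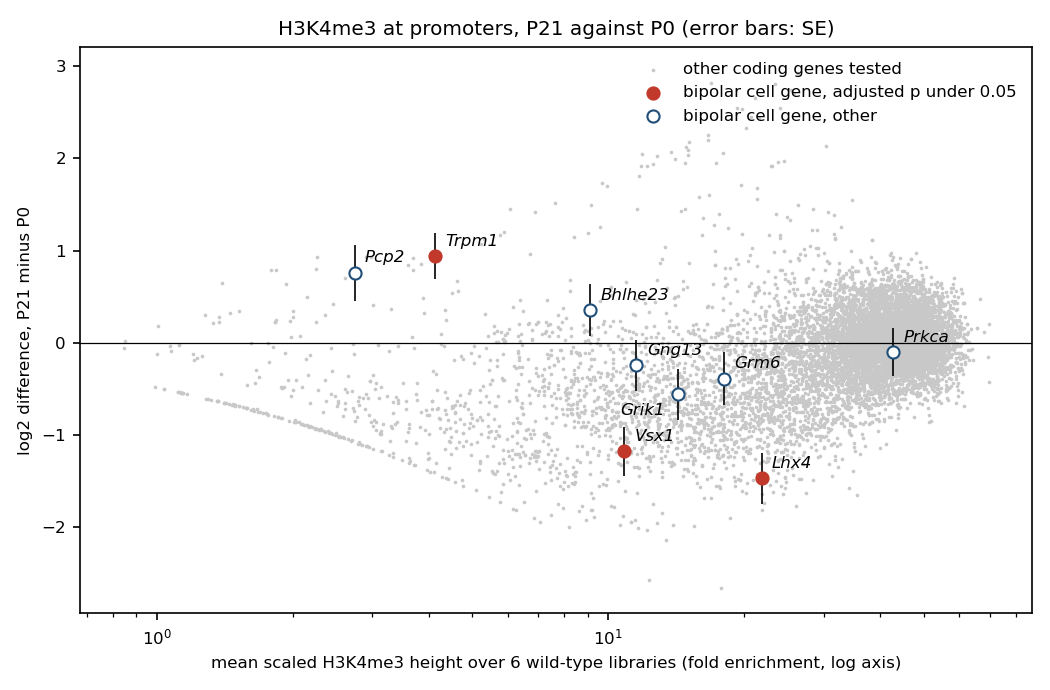
Log2 difference in scaled H3K4me3 height, P21 minus P0, against the mean height over the 6 wild-type libraries (log axis) for 10108 genes (gray) and the 9 bipolar cell genes tested (error bars, SE). Lhx4 (-1.47) and Vsx1 (-1.18) lie below 0 and Trpm1 (0.94) above 0, each past the threshold. Prkca (-0.10) has the tallest mean height of the 9 bipolar cell genes.

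Markers of other cell types moved between the same stages, and their part in these differences was not tested. All 5 rod genes placed were called as higher at P21, against 0.9% of all genes (summed scaled H3K4me3 height 0 to 2.95 at P0 and 175 to 205 at P21), with Gngt1, Pde6b, Cnga1 and Grk1 listed at 0 in both P0 libraries, so that these 4 could only be higher. Of 5 progenitor genes reported here, Pax6 (log2 difference -1.63, adjusted p = 0.00376) and Sox2 (-1.48, adjusted p = 0.0152) were called as lower at P21 by limma, against 5.41% of all genes. For amacrine and horizontal cells 4 of 9 were called as lower (sums of 200 to 237 at P0 and 101 to 110 at P21), and for Müller glia 2 of 5 tested (183 to 184 and 84.4 to 95.6), against the same 5.41%. The sums of the 10 bipolar cell genes were 154 to 155 at P0, 130 to 164 at P14 and 103 to 109 at P21.

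The other genes of the ON cascade (8 genes, all tested) included 2 called as higher at both P14 and P21 and none called as lower. Over all genes, 0.564% were called as higher and 1.21% as lower at P14, and 0.9% and 5.41% at P21. The contrasts share the P0 libraries. Gnb5, a G protein beta subunit that partners the RGS proteins of the ON cascade, had no peak at P0, 19.1 and 23.6 at P14, and 32.7 and 15.0 at P21. Lrit3, a synaptic protein needed to place TRPM1, had no peak at P0, 14.8 and 26.6 at P14, and 35.9 and 15.9 at P21. Both entered the fit through the later libraries alone and could only be higher there, with log2 differences at P21 of 1.95 (SE 0.26, adjusted p = 0.00133) for Gnb5 and 2.04 (SE 0.28, adjusted p = 0.00166) for Lrit3 by limma. Without scaling the P14 calls of both were lost (adjusted p = 0.0541 and 0.0727). Gnao1, Gnb3, Rgs7, Rgs11, Nyx and Gpr179 did not pass the test.

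Of 7 other bipolar transcription factor genes tested and reported here, none was called at P14 against P0 (0 of 7, against 1.77% of all genes), and at P21 against P0 2 were called as lower and 1 as higher (against 6.31%). Isl1, which acts in ON bipolar, ganglion and amacrine cells, had 30.3 and 47.9 at P0, and 9.86 and 5.14 at P21 (log2 difference -1.64, SE 0.28, adjusted p = 0.00507, limma). Fezf2 had 23.2 and 31.3 at P0, and 10.4 and 2.89 at P21 (log2 difference -1.41, SE 0.27, adjusted p = 0.0107, limma). These 2 genes resembled Lhx4 and Vsx1 in that all P21 libraries lay below all P0 libraries, and their calls too were lost without scaling. Leaving out a single library ended the call of Fezf2 (either P21 library) and of Isl1 (P21 replicate 1). Without these libraries the log2 differences were -1.44 and -1.33 for Fezf2 and -1.48 for Isl1.

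Sebox had no peak at P0 and 78.9 and 27.6 at P21 (log2 difference 2.82, SE 0.25, adjusted p = 0.000161, limma), and it too entered the fit through later libraries alone. With peaks within 1 kb of its start the difference was 0.78 and was not called. At P21 against P14 Sebox was the only gene called of all 10108 (log2 difference 1.95, SE 0.25, adjusted p = 0.0260, limma), and that call too was lost with peaks within 1 kb, without scaling and without any single P14 or P21 library. Of 6 bipolar subtype and synapse genes tested, none was called in any stage comparison of H3K4me3 (0 of 6, against 1.77% of all genes at P14 against P0, 6.31% at P21 against P0 and 0.00989% at P21 against P14).

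For H3K27Ac at the promoters, 4 of the 10 genes entered the stage fits (Gng13, Grm6, Lhx4 and Prkca) and none was called. Over all 9250 genes tested none was called either (0 at P14, P21 and P21 against P14 by limma), with 7.45%, 10.3% and 1.09% at an unadjusted p under 0.05. At Lhx4, H3K27Ac was 5.09 and 3.39 at P0, none and 3.95 at P14, and none in either P21 library (log2 difference at P21 against P0 -1.13, SE 0.40, unadjusted p = 0.0277, adjusted p = 0.406, limma). Lhx4 reached the filter of 2 libraries only through its P0 peaks, so without a P21 peak it could only be lower at P21. At Prkca it was 8.16 and 6.67 at P0, 9.11 and 15.5 at P14, and 6.97 and 7.49 at P21. P14 lay above P0, and P21 overlapped P0 (log2 difference at P21 against P0 0.34, SE 0.37, adjusted p = 0.695, limma).

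**Figure D4:**
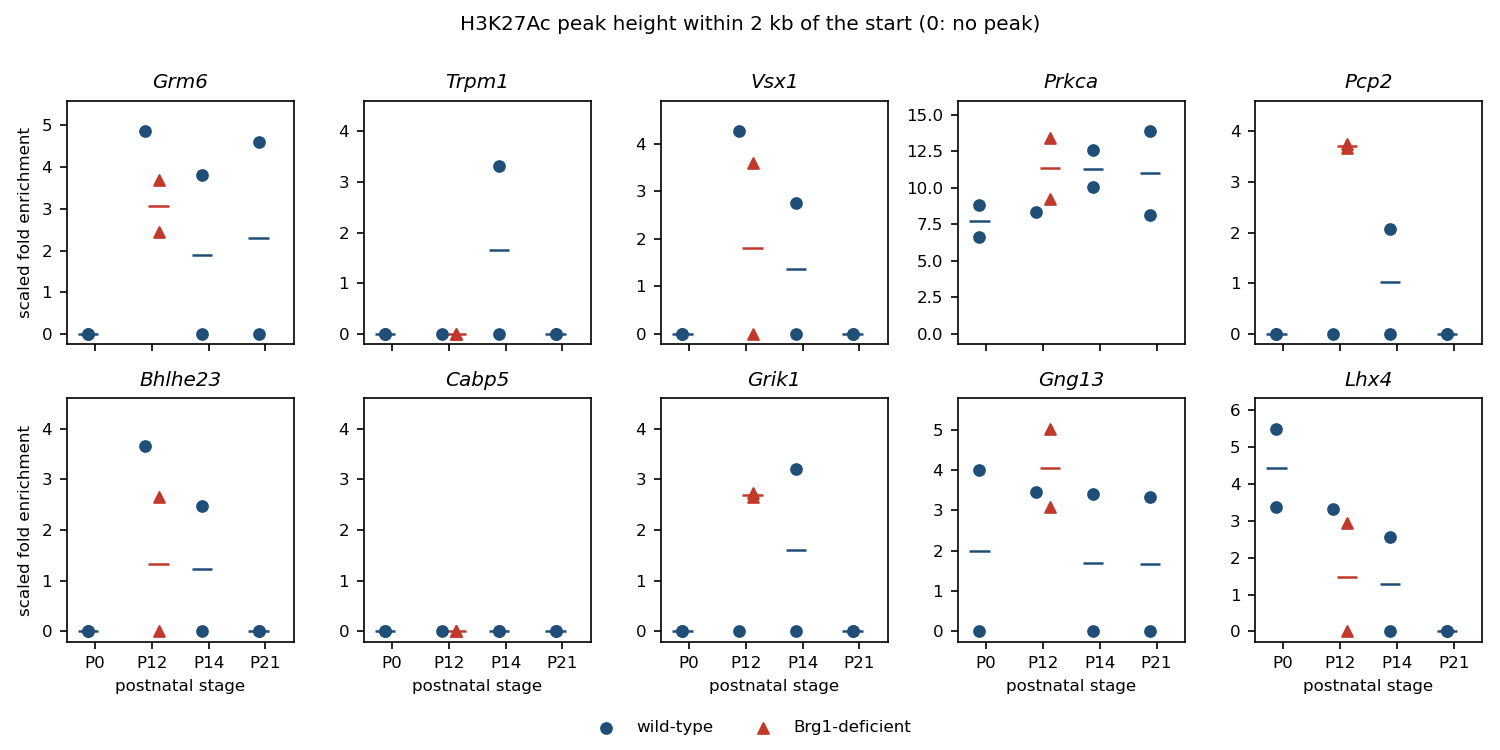
H3K27Ac height within 2 kb of the start by stage for each gene, as fold enrichment scaled over all 9 libraries of the mark. Points are libraries, bars the mean of 2 libraries, circles wild-type and triangles Brg1-deficient; Prkca alone has a peak in every library, and Cabp5 has none.

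The most H3K27Ac peaks around the 10 genes lay at Prkca, a gene of 411 kb, and such counts depend on gene length. Peaks in Prkca made up 30.0% and 38.9% of all H3K27Ac peaks listed around the 10 genes at P0, 55.6% and 60.9% at P14, and 81.3% and 74.5% at P21. By library, 3 and 7 peaks were listed in Prkca and its flanks at P0, 5 and 42 at P14, and 13 and 38 at P21. Both P21 libraries lay above both P0 libraries, while P14 replicate 1 (5) lay below P0 replicate 2 (7). The lists differed in length, so densities were set beside the median over all genes in the same library. Per 100 kb, Prkca held 0.666 and 1.55 peaks at P0, below the medians of 1.72 and 2.19. At P21 it held 2.89 and 8.44, above the medians of 0.91 and 2.69. At P14 replicate 1 lay below its median (1.11 against 1.23) and replicate 2 above (9.32 against 2.92). Outside Prkca, many of the peaks around these genes lay at starts of neighboring genes, such as Mtmr10 beyond Trpm1, Zfp879 beside Grm6 and Stxbp2, Pet100 and Xab2 beside Pcp2.

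H3K27Ac peaks of the 6 wild-type stage libraries were merged into regions, and 39 regions around the 10 genes had a peak in at least 2 libraries, 9 of them at the start of another coding gene. At P21 against P0, 2 of the 39 were called, 1 as higher and 1 as lower, against 10.4% of all 33340 regions (7.94% as higher and 2.46% as lower). At an unadjusted p under 0.05 there were 13 of the 39, against 25.9% of all regions. At P14 against P0 none was called (0 of 33340 by limma, with 16% at an unadjusted p under 0.05). A region within Prkca, chr11:108023685-108024670, 181 kb into the gene, had 5.49 and 5.41 at P0 and no peak at P14 or P21, nor in any P12 library (log2 difference at P21 -1.80, SE 0.38, adjusted p = 0.0482, limma). It entered the test through the P0 libraries alone and could only be lower later. A Brg1 peak of 3.88 overlapped it at P0. Its call was lost without scaling (adjusted p = 0.0837), with no filter (0.0711), and without P14 replicate 1 (0.0525) or P21 replicate 1 (0.183). The other region called, chr8:3608205-3611580, lay 15.7 kb beyond the start of Pcp2 but within 2 kb of the start of Camsap3. It entered the test through later libraries alone, with no peak at P0, 5.56 and 8.06 at P14, and 4.37 and 7.55 at P21 (log2 difference 2.18, SE 0.40, adjusted p = 0.0477, limma), and its call was lost without scaling (0.0863), without either P0 library (0.457 and 0.396), and without P14 replicate 1 (0.0525) or P21 replicate 1 (0.183).

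Of the 25 Prkca regions tested, 21 had no peak at P0 and entered the test through later libraries alone, so they could only be higher later; over all regions tested 43.8% had no peak at P0. A peak in both P21 libraries and none at P0 was found for 9 of the 25, against 17.0% of all regions tested. These 9 lay between 4.74 kb upstream and 120 kb downstream of the start, with log2 differences of 1.72 to 2.90 and adjusted p of 0.0531 to 0.0967 (limma), short of the threshold. All 9 also had a peak in the wild-type P12 library, and 6 had a peak in both Brg1-deficient P12 libraries. The widest, chr11:108157843-108163802, 44.3 kb into the gene, had no peak at P0, 9.65 and 12.3 at P14, and 16.3 and 6.18 at P21. At P12 it had 11.8 in wild-type and 8.48 and 8.98 in Brg1-deficient retinae. Of the 9, 2 overlapped a Brg1 peak of P0.

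**Figure D5:**
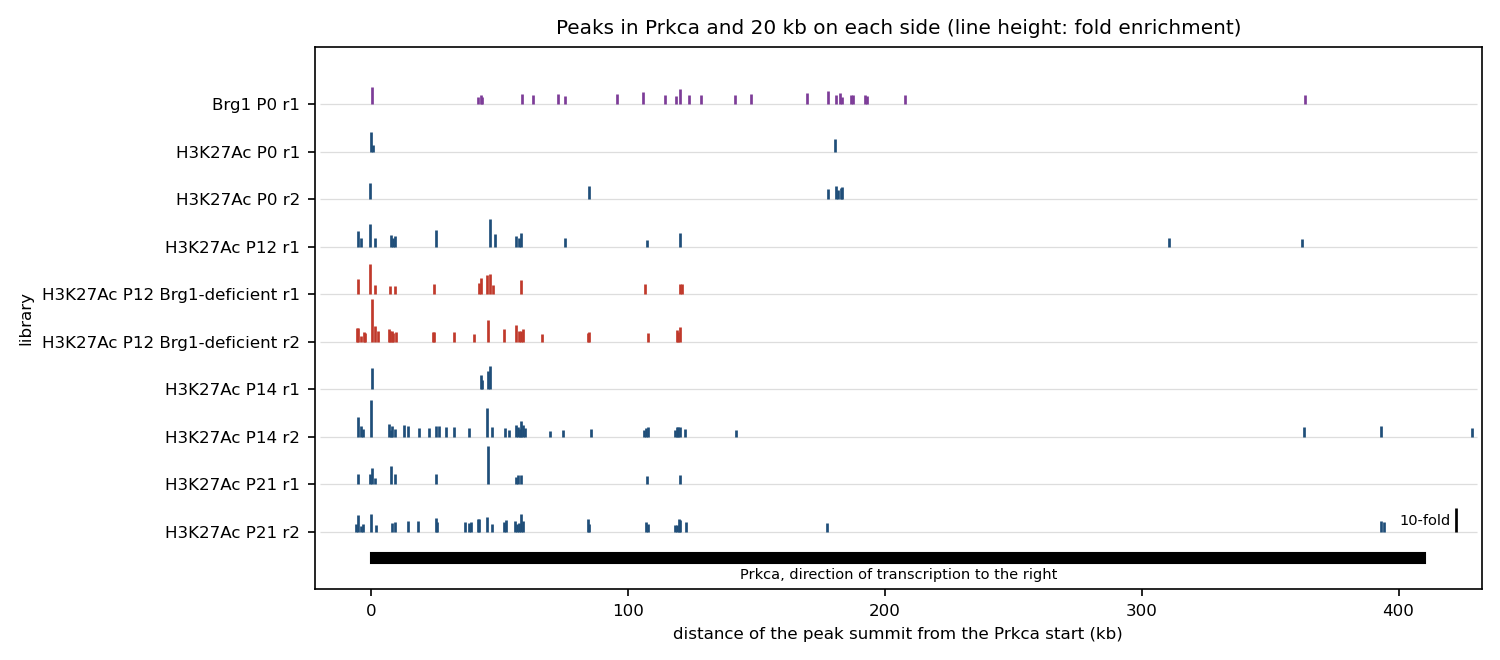
Summits of Brg1 peaks (purple) and H3K27Ac peaks (wild-type blue, Brg1-deficient red) by library against the distance from the Prkca start in kb, with line height showing fold enrichment. Peaks 181 kb into the gene are seen at P0, and most H3K27Ac peaks of later stages lie in the first 120 kb.

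At P12, Brg1-deficient and wild-type retinae were compared, with the single wild-type library of each mark assumed to vary like the other groups. None of the 10 genes was called for H3K4me3 (0 of 10142 genes by limma, with 2.78% at an unadjusted p under 0.05 and none of the 10 genes among them), and none of the 8 tested for H3K27Ac (0 of 9528 genes, with 0.829% at an unadjusted p under 0.05). The values below come from 1 library per genotype for H3K4me3, so the design shows no replicate spread of its own at P12. The median log2 difference was -0.40 over the 10 genes and 0.01 over all genes, and without scaling the median over all genes was -0.47.

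H3K4me3 at Lhx4 was 28.4 in wild-type and 11.7 in Brg1-deficient P12 retinae, and scaled 20.1 and 12.5 (log2 difference -0.46, SE 0.39, adjusted p = 1, limma). At Vsx1 it was 19.97 and 7.96 (log2 difference -0.43, SE 0.38), at Grm6 39.7 and 17.4 (-0.45, SE 0.40), at Grik1 21.9 and 8.16 (-0.51, SE 0.39) and at Bhlhe23 22.2 and 9.71 (-0.37, SE 0.40). The wild-type library was the richer, with a median promoter height of 53.6 against 35.8. Gng13 had 17.3 and 18.02 (log2 difference 0.44, SE 0.40), Prkca 66.2 and 45.6 (0.05, SE 0.37), Trpm1 5.17 and 5.51 (0.26, SE 0.35) and Pcp2 4.23 and 5.16 (0.31, SE 0.43). At Cabp5 the wild-type library listed 5.08 and the Brg1-deficient library no peak (log2 difference -0.56, SE 0.38). Cabp5 reached the filter of 2 libraries only through this wild-type library, so it could only be lower in Brg1-deficient retinae. The median over the 10 genes includes it. The adjusted p was 1 for each of the 10 genes by limma.

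For H3K27Ac at P12, Pcp2 had no peak in the wild-type library and 5.18 and 4.94 in the Brg1-deficient libraries, the largest difference of the 8 genes tested (log2 difference 1.06, SE 0.40, unadjusted p = 0.0326, adjusted p = 1, limma). Grik1 likewise had no wild-type peak at P12 and 3.77 and 3.58 in Brg1-deficient retinae (log2 difference 0.84, SE 0.46). Both genes reached the filter of 2 libraries only through the Brg1-deficient libraries, so that they could only be higher there. Prkca had 9.41 in wild-type and 12.8 and 18.1 in Brg1-deficient retinae (0.32, SE 0.43). Vsx1 had 4.82 against 4.98 and none, Lhx4 3.76 against 4.06 and none, and Bhlhe23 4.15 against none and 3.57, so that in these 3 genes a Brg1-deficient replicate without a peak sat beside another at about the wild-type height. Grm6 had 5.50 against 5.12 and 3.28, and Gng13 3.91 against 6.94 and 4.16.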

How the data were processed

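Peaks and domains were called for each library by the authors, not on pooled replicates. Reads were aligned to mm9; the submitters' processing notes name BWA 0.5.9-r26, Picard 1.65, MACS2 2.0.9, SICER 1.1 and bedtools 2.17.0. The Brg1, H3K27Ac and H3K4me3 lists deposited by the authors give each peak's fold enrichment, a ratio over local background. They also give the −log10 p-value and −log10 q-value that the authors deposited, of which the q was used only to rank peaks. The H3K27me3 domains deposited by the authors carry a score whose meaning is not given in the sources used here, so only their positions were used. Read depth is unknown, and the input libraries were not analysed here.

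RefSeq starts of GRCm38.p6 were placed on mm9 by matching the local pattern of starts to the wild-type P0 H3K4me3 peaks. No other mark or stage was used for this shift. Its standard error at the members was 45.1 to 130 bp. Heights within 2 kb of a start were scaled on the median of promoters with a peak in every library. limma 3.58.1 (R 4.3.3) was fitted to log2(scaled height + pseudocount), with the 5th percentile of heights as the pseudocount (7.37 for H3K4me3, 3.23 for H3K27Ac, 2.08 for regions; 7.55 and 3.44 in the P12 fits). Genes or regions with a peak in at least 2 libraries were tested with Benjamini-Hochberg adjustment over all of them. Such differences understate changes of low values. Stage fits used the 6 wild-type libraries of a mark, and P12 fits all libraries of a mark. The fits were tested on simulated data made from genes or regions with a peak in every library. Features without a peak in some libraries, such as Trpm1, were therefore not covered. Other steps used Python 3.11.15 and pandas 2.3.3. Alternatives covered pseudocount, filter, scaling, number of peaks, window, samples in the fit, left-out libraries and a replicate block.

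The genes, the other lists and the tests were chosen with earlier results of these data known. Named beside the 10 genes were the listed bipolar genes past the threshold in a stage comparison, at most 5 per list by adjusted p, and the 5 genes whose H3K27Ac pattern was most like that of the 10. One gene of the lists is not reported here.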

Additional observations from a re-analysis of the deposited data

How the results depend on the processing

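Of the H3K4me3 promoter counts, 179 genes at P14 against P0 became 338 with a pseudocount of 1 and 13 without scaling (46 to 162 with a library left out), and 638 at P21 against P0 became 55 without scaling and 1346 with the replicate block (141 to 683 with a library left out). At P21 against P14, 1 became 21 with a pseudocount of 1 and 0 with a peak in every library or without scaling (0 to 1 with a library left out). At P12, 0 became 1 with a pseudocount of 1, with a peak in every library and within 1 kb. For H3K27Ac promoters, 0 became 33 at P14 and 47 at P21 against P0 with a peak in every library, 57 at P14 with the replicate block and 182 at P21 with the same number of peaks. For H3K27Ac regions at P14 against P0, 0 became 2489 (pseudocount of 1), 105 (peak in every library), 4169 (same number of peaks), 3348 (only these stages) and 5296 (replicate block). At P21 against P0, 3465 became 234 (peak in every library), 2094 (no filter), 0 (no scaling), 5625 (same number of peaks), 7252 (only these stages) and 7869 (replicate block), and 0 to 7205 with a library left out. Without P0 replicate 1 or 2, P14 replicate 1 or P21 replicate 1 it was 0. The cause was not tested. With the strongest 50% of peaks, the bipolar cell genes with H3K4me3 in both replicates were 2, 1 and 1 at P0, P14 and P21, and with H3K27Ac 1 at P0, as with the same number of peaks. With a library left out, the count for H3K27Ac was 2 to 3 at P0, 1 to 9 at P14 and 1 to 3 at P21. H3K27Ac peaks around the genes averaged 6, 13 and 12.5 with the strongest 50% (9.5 at P14 and 11.5 at P21 with the same number of peaks), and Brg1 peaks were 23.

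Libraries shared only a replicate number (correlation of replicate differences 0.0115, 0.00759 and 0.263 for H3K27Ac and 0.177 for H3K4me3). With the number as a block, 4 bipolar cell genes were called at P21 for H3K4me3, among them Lhx4 (adjusted p = 6.81e-06), Vsx1 (0.000499) and Trpm1 (0.00835) by limma. That fit held the P0 and P21 libraries only, so its spread rested on few libraries. Its count over all genes rose as well, as given above. The block could not be fitted for the H3K4me3 comparisons with P14 and for the P12 comparisons, where the groups share fewer than 2 numbers. Scaling moved the median log2 difference over all genes by more than 0.1 in 7 of the 8 promoter comparisons, the most for H3K4me3 at P12 (0.01 to -0.47). Counting any listed start of a gene, an alternative chosen after seeing the data, changed no promoter count of the 10 genes.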

Other observations

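Zfp296, Furin, Kcnt2, Ky and Arxes2 had the H3K27Ac promoter pattern most like the mean of the 8 bipolar cell genes tested, with Pearson's r of 0.98 each over 9 libraries, and 35 of 9528 genes reached 0.9. All 5 had a peak in the 3 P12 libraries and P14 replicate 2, and none in the others. These are 4 of the 5 longest H3K27Ac lists, so the libraries share their number of peaks as well as their stage. Correlations are across libraries and are a description only.

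H3K27Ac was also listed at the starts of neighboring genes. At Mtmr10, 134 kb from the start of Trpm1, all 9 libraries listed a peak, with heights of 4.46 to 14.4. Within 2 kb of the start of Trpm1 itself, peaks were listed in P14 replicate 2 only, the highest (5.09) beginning 1333 bp inside the gene. At Zfp879, on the other side of the Grm6 start, 6 libraries listed a peak of 8.07 to 12.2.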
